A study of Mus musculus with 9 samples.

Results

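The small RNAs described here were the rows of a gene count table whose symbol names 7SK, 7SL, the RNAs of RNase P and RNase MRP, the spliceosomal small nuclear RNAs (snRNAs), the small nucleolar RNAs (snoRNAs) of box C/D and box H/ACA, the Cajal body RNAs, the telomerase RNA or the vault RNAs. The rows were picked by symbol. This gave 178 of the 56691 rows, of which 107 were box C/D snoRNAs, 38 box H/ACA snoRNAs, 15 snRNAs, 8 Cajal body RNAs, 3 rows of 7SL, 3 rows of RNase P and MRP, 2 vault RNAs, 1 telomerase RNA and 1 row of 7SK. The 9 libraries hold RNA of the mouse line NIH/3T3, which was derived from embryonic fibroblasts. The groups were 3 control libraries, 3 libraries from cells given UVA at 10 J/cm2 (called UVA; their sample titles read MOCK) and 3 libraries from cells given the same UVA dose with α-arbutin, a glycosylated hydroquinone (called co-treated). Every library has the genotype label WT and comes from this 1 line, kept in DMEM with fetal bovine serum. The α-arbutin dose, its order relative to UVA, the time of harvest, and any separate origin of the cultures are not given in the labels used here, so p-values measure the spread between these libraries, which may be technical.

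These RNAs act without being translated, and most carry no poly(A) tail. 7SK is made by RNA polymerase III and holds the kinase P-TEFb inactive together with the protein HEXIM1, 7SL is the scaffold of the signal recognition particle, and the RNAs of RNase P and RNase MRP cut the precursors of tRNA and rRNA. Box C/D snoRNAs guide ribose methylation and box H/ACA snoRNAs guide pseudouridylation, mainly of rRNA. In vertebrates most snoRNAs are cut out of the introns of protein-coding or noncoding host genes, while 7SK, RNase P RNA and RNase MRP RNA have promoters of their own.

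The sequences below are those of the RNAs on which the results turn, taken from the GENCODE M21 transcripts (GRCm38) by gene ID or symbol with the same length; 171 of the 178 rows matched in this way. The 7SK RNA is shown because it was the member with the most counts and the one with the smallest adjusted p, and bases 1 to 150 of its 331 bases are given. Its capitals mark the 3 GATC runs, the first of which starts at base 13. On mm39 its row lies at chr9:78082585-78082915 on the minus strand, and no other row of the table overlaps it. GATC occurs in the first 60 bases of 48.9% of the 141 small RNA transcripts of 300 to 360 bases in that release. Rn7sk and copies of 7SK were not taken out of this set, so the share does not tell how common GATC is outside 7SK.
Rn7sk: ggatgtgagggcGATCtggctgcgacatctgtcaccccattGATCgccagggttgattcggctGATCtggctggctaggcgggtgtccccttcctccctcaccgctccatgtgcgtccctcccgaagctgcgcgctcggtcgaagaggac
RNase P RNA (Rpph1, mm39 chr14:51044906-51045224, minus strand) is shown because it was the other member called lower in co-treated cells, and bases 1 to 120 of its 319 bases are given, with capitals on the first 35, which lie outside the overlapping gene Ccnb1ip1 (described with its counts).
Rpph1: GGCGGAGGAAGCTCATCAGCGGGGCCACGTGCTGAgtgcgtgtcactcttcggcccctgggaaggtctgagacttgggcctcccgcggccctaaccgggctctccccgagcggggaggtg
The 4 box H/ACA snoRNAs with the most counts follow, with capitals on the first ANANNA run that starts at least 50 bases from either end and on the ACA 3 bases from the end. Both motifs were searched on the RNA strand. They occur together in 29 of 38 matched box H/ACA members (76.3%), in 0 of 102 matched box C/D members and in 22.5% of the 866 snoRNA transcripts of 120 to 150 bases.
Snora31: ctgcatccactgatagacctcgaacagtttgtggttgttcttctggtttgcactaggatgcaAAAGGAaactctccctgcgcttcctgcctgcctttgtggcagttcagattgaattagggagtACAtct
Snora2b: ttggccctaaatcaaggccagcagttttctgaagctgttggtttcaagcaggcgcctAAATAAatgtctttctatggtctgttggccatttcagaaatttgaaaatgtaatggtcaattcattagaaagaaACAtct
Snora41: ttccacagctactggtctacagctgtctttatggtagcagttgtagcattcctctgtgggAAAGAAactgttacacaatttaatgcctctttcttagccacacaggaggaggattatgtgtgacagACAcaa
Snora57: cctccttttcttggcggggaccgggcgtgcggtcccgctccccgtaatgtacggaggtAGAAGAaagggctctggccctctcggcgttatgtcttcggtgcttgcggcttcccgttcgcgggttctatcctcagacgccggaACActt
Of the 3 box C/D snoRNAs below, Snord73b and Snord53 had an unadjusted p below 0.05 in co-treated against UVA, and Snord73a shares a host gene with Snord73b. Capitals mark box C searched as NTGATGA in the first 20 bases and box D as CTGA in the last 15 bases. Both occurred in 67 of 102 matched box C/D members (65.7%), in 0 of 38 matched box H/ACA members and in 58.9% of the 501 snoRNA transcripts of 60 to 110 bases. Snord73a and Snord73b are 73.2% identical over their length, and in Snord53 the letters of box D were not in the searched window.
Snord73a: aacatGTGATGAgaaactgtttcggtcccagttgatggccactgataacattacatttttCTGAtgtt
Snord73b: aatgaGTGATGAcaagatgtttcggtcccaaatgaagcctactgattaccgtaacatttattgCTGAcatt
Snord53: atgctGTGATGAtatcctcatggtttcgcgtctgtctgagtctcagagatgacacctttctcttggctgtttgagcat

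Counts were few. The libraries held 16.3 to 20.86 × 1e6 counts over all genes, and 376 to 649 of these fell on the 178 small RNA rows. Of the 178, 112 were at 0 in all 9 libraries and 66 had at least 1 count, 14 of them with 1 to 9 counts in all; 31 were above 0 in every library. A count of 0 in a library allowed up to 0.1438 to 0.1841 CPM (counts per 1e6 counts), taking 3 counts as the limit, and this covers counting error only. Rows above 0 had a median length of 110 bases, against 94 for rows at 0, but these medians mix the classes. Within box C/D snoRNAs the medians were 85 and 87 bases, and within box H/ACA snoRNAs 136 and 132. The 4572 counts were shared by box C/D snoRNAs (1673 counts, 36.6%), box H/ACA snoRNAs (1440, 31.5%), 7SK (1019, 22.3%), RNase P and MRP (259), Cajal body RNAs (120), snRNAs (32), 7SL (24) and vault RNA (5). Terc, the telomerase RNA, had 0 counts in every library. Levels below are CPM after scaling by trimmed mean of M values (TMM), and 14 of the 178 members passed the filter on low counts and were tested with all other genes in edgeR (14151 genes in all). Genes listed for fibroblasts, such as Col1a2 and Vim, were abundant in these libraries (means of 1505 and 3237 CPM), but Fap was near 0 (0.055 CPM). The fibroblast list of 10 genes summed to 11701 to 12085 CPM in control, 8230 to 8510 in UVA and 7972 to 8616 with co-treatment. Of 9 tested, edgeR called 8 lower and 1 higher in each irradiated group against control. Over all tested genes, 14.6% were called lower in UVA against control and 12.9% in co-treated against control. The 5 lists of epithelial, endothelial, immune, muscle and adipocyte markers each summed to between 0.488 and 6.05 CPM in a library; Epcam, Krt5, Cd3e and Myod1 were at 0 in every library, and the highest were Cd68 (4.13 CPM) and Cdh5 (3.78 CPM). The immune sum was 4.18 to 4.27 CPM in control, 4.59 to 6.05 in UVA and 4.33 to 5.56 with co-treatment. Both irradiated groups thus lay above control, and most of this sum was Cd68. Of the 2 immune genes tested, edgeR called 1 higher and 1 lower in each irradiated group against control. The part of these marker differences in the results was not tested. In bulk RNA, fewer cells with an RNA and less of it per cell cannot be told apart.

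7SK RNA was lower in co-treated cells than in both other groups. Rn7sk had 128, 91 and 137 counts in the control libraries, 153, 125 and 164 in UVA, and 73, 74 and 74 with co-treatment. As levels these were 7.44, 5.11 and 6.56 CPM in control, 8.47, 7.72 and 8.21 in UVA, and 4.45, 4.29 and 4.09 with co-treatment. All 3 co-treated libraries lay below every control library, and every control library lay below all 3 UVA libraries, so no 2 of the groups overlapped. The means were 6.37 ± 1.18 CPM in control, 8.13 ± 0.379 in UVA and 4.28 ± 0.18 with co-treatment (SD, n = 3). Per length, the deposited FPKM averaged 19.3 ± 3.57, 24.4 ± 1.12 and 12.9 ± 0.571.

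Co-treated against UVA gave Rn7sk -0.93 ± 0.16 on the log2 scale (estimate and SE, with a 95% interval from -1.25 to -0.61). It passed edgeR's quasi-likelihood test with Benjamini-Hochberg adjustment over all genes (adjusted p = 0.00684), 1 of 14 tested members. Among all tested genes, 0.0353% were called in this comparison: 4 higher (0.0283%) and 1 lower (0.00707%), and Rn7sk was the lower one. Co-treated against control gave Rn7sk -0.57 ± 0.16 (interval -0.90 to -0.25; edgeR adjusted p = 0.00762), a comparison in which 25.8% of tested genes were called. Of the 14 tested members, 2 were lower there and 0 higher, beside 12.9% and 13.0% of all tested genes; the other was Rpph1. UVA against control gave 0.35 ± 0.15 (interval 0.06 to 0.65), which did not pass (edgeR adjusted p = 0.0676; 29.3% of genes called). The call against UVA was lost when co-treated replicate 2 or replicate 3 was left out (adjusted p = 0.0755 and 0.0686) and with limma on log2 FPKM (-0.87, adjusted p = 0.151). The call against control was lost without control replicate 1 (-0.46, adjusted p = 0.0618), and without that library UVA against control passed (0.47, adjusted p = 0.0327), as it did with limma (0.34, adjusted p = 0.0436).

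**Figure D1:**
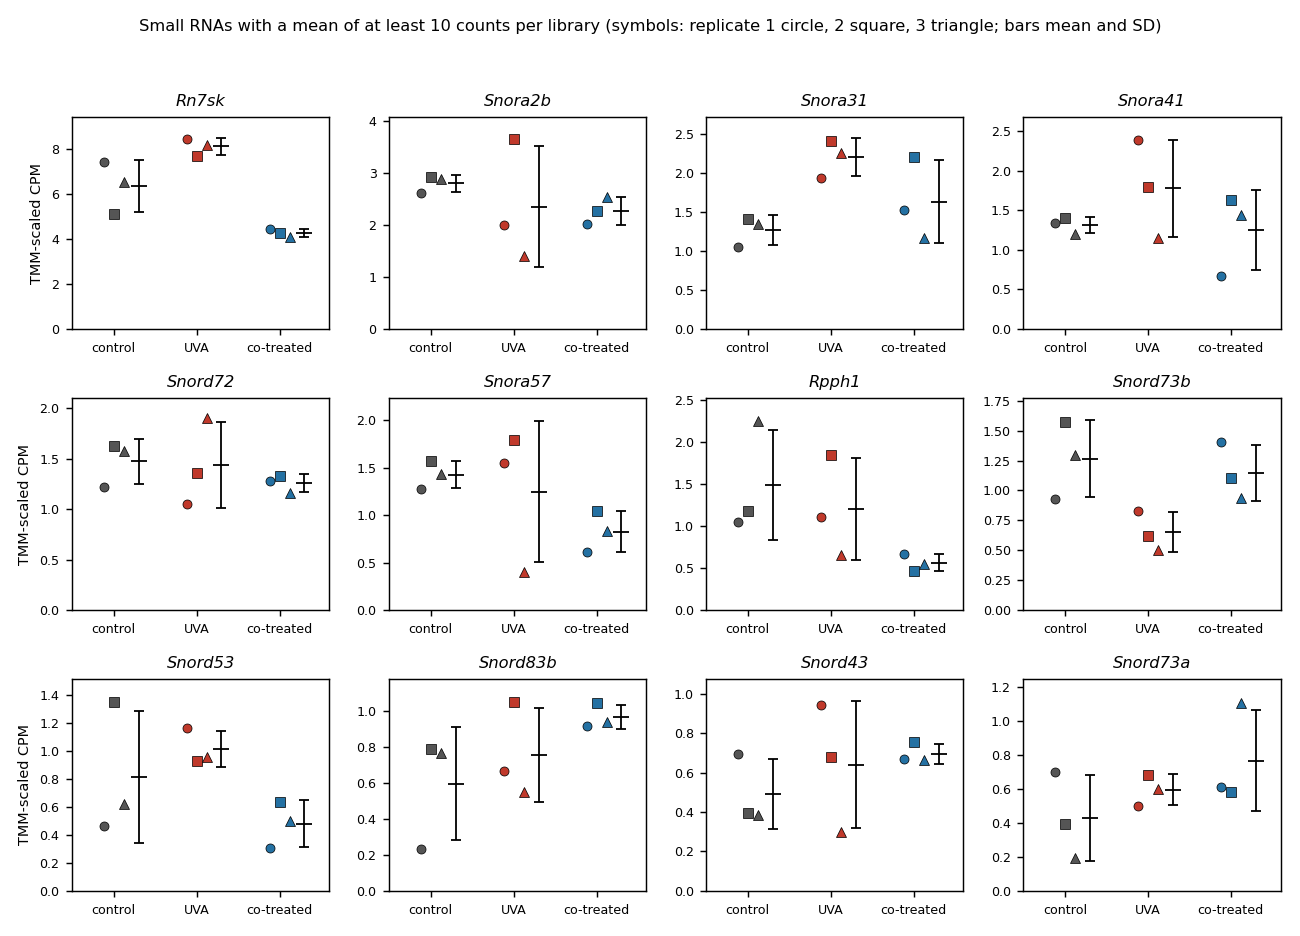
TMM-scaled CPM (linear axes from 0) of the 12 small RNAs with a mean of at least 10 counts per library, by group. Symbols are single libraries and bars the mean with its SD (n = 3). Rn7sk sits between 4.09 and 4.45 in co-treated, below every other library, and Snora41, Snord72, Snord43 and Snord73a overlap between all groups.

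The mouse genome holds many partial copies of 7SK, and a read that fits a copy as well could be counted there or dropped. The table has 329 further rows named 7SK that carry no Rn7sk symbol; 64 of them were above 0, with 788 counts in all. Their sum was 4.82 ± 0.247 CPM in control, 4.80 ± 0.350 in UVA and 4.99 ± 0.682 with co-treatment, and all groups overlapped. Of 408 other small RNA transcripts of 200 to 450 bases in GENCODE M21, the closest was 89.1% identical to Rn7sk, and 9 were at least 80% identical. Identity was taken end to end over the longer transcript, so a shorter copy scores low even where it matches fully. These values therefore do not show whether single reads fit a copy. With those 329 rows added to Rn7sk, the log2 fold change was -0.48 against UVA (edgeR adjusted p = 0.221) and -0.27 against control (edgeR adjusted p = 0.0962). Because the copies differed little between groups, adding them had to bring these values nearer to 0. The result therefore does not tell whether reads of 7SK were counted at the copies. This sum was chosen after the data had been seen.

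The proteins that build and read the 7SK particle are made from ordinary messenger RNAs, and 7 of these genes were listed and tested. Hexim1, whose protein inhibits P-TEFb when bound to 7SK, stood at 69.0, 69.0 and 69.7 CPM in control, 94.71, 95.01 and 126.23 in UVA, and 83.1, 89.1 and 101.8 with co-treatment. Both UVA and co-treated libraries lay above every control library, and they overlapped with each other. Hexim1 rose in UVA against control by 0.61 ± 0.08 (edgeR adjusted p = 6.9e-07) and in co-treated against control by 0.40 ± 0.08 (adjusted p = 0.000341). Mepce, which caps the start of 7SK, rose by 0.34 ± 0.06 (adjusted p = 6.61e-05), and Larp7, which binds its end, by 0.23 ± 0.06 (adjusted p = 0.00617), both in UVA against control. Hexim2, Cdk9, Ccnt1 and Ccnt2, which encode the second inhibitor, the kinase and its cyclins, did not pass in any of the comparisons. In UVA against control, 3 of the 7 genes were thus called higher, where 14.7% of all tested genes were. In co-treated against UVA, edgeR, DESeq2 and limma called 0 of the 7, and edgeR called 0.0353% of all tested genes. Hexim1 and Cdk9, 2 of the 7, had an unadjusted p below 0.05 in edgeR there, beside 957 of 14151 genes. Log2 fold changes ran from -0.21 (Hexim1, edgeR adjusted p = 0.645) to 0.02. In co-treated against control, 2 of the 7 were called higher, where 13.0% of all tested genes were. These were Hexim1 and Mepce (0.27 ± 0.06, edgeR adjusted p = 0.000897). Hexim1 and Mepce thus lay above control in both irradiated groups, and Rn7sk below control in co-treated. The differences between these genes were not tested.

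**Figure D2:**
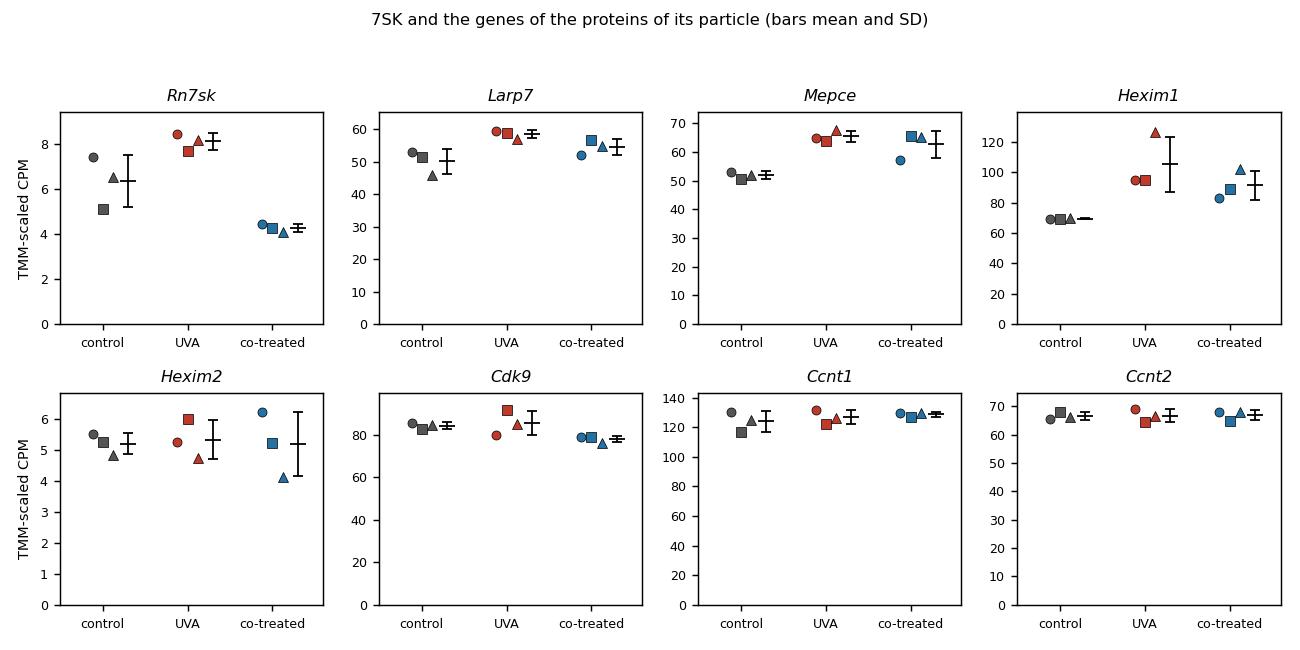
TMM-scaled CPM (linear axes from 0) of Rn7sk and of the genes for proteins of its particle, by group, with single libraries as symbols and the mean with its SD as bars (n = 3). Hexim1 and Mepce lie higher in UVA than in control. Rn7sk alone of the genes drawn was called lower in co-treated than in UVA, where 0.00707% of all tested genes were.

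RNase P RNA was lower in co-treated than in control. Rpph1 had 18, 21 and 47 counts in control, 20, 30 and 13 in UVA, and 11, 8 and 10 with co-treatment. Every co-treated library had fewer counts than any other library, although after scaling the highest co-treated library (0.67 CPM) lay just above the lowest UVA library (0.65 CPM). Co-treated against control gave -1.42 ± 0.43 (interval -2.30 to -0.54; edgeR adjusted p = 0.0148), and co-treated against UVA gave -1.06 ± 0.45 (adjusted p = 0.699). The first call rested on control replicate 3, which had the 47 counts: without it the value was -0.98 (adjusted p = 0.18), and without co-treated replicate 2 it was -1.30 (adjusted p = 0.0639). Of the 319 bases of Rpph1, 284 lie inside Ccnb1ip1 on the same strand, a gene at 0 counts in every library. Parp2 starts 73 bases away on the other strand, and it was not called in any comparison (log2 fold changes of -0.22, -0.07 and -0.28).

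Rmrp, the RNA of RNase MRP, had 6, 3 and 18 counts in control, 9, 14 and 9 in UVA, and 8, 7 and 7 with co-treatment, and was not tested. Its groups overlapped. Rpph1 and Rmrp together stood at 1.95 ± 1.01 CPM in control, 1.81 ± 0.828 in UVA and 0.989 ± 0.151 with co-treatment, and the co-treated sum lay below every control library. The table lists Rmrp in 2 rows, 1 of them of 271 bases lying wholly within the other and at 0 in every library, and Ccdc107 overlaps it on the other strand. Ccdc107 was called lower in co-treated against control (-0.34 ± 0.10, edgeR adjusted p = 0.0145) and was not called in the other comparisons; whether reads of this gene have a part in the Rmrp counts was not tested. Of 10 tested genes for protein subunits of both enzymes, 2 were called higher and 1 lower in UVA against control, where 14.7% and 14.6% of all tested genes were (29.3% together). Rpp40, the lower one, fell by 0.51 on the log2 scale in UVA and by 0.82 in co-treated, both against control (edgeR adjusted p = 0.000827 and 3.52e-06). Pop1, the large shared subunit, rose by 0.20 in UVA against control (adjusted p = 0.00552).

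Among the box H/ACA snoRNAs, 1 was called. Snora31 had 18, 25 and 28 counts in control, 35, 39 and 45 in UVA, and 25, 38 and 21 with co-treatment. All UVA libraries lay above all control libraries, and the co-treated libraries overlapped both groups. UVA against control gave 0.79 ± 0.29 (interval 0.19 to 1.39; edgeR adjusted p = 0.0432), and it was the single member called in that comparison, 1 of 14 tested, where 14.7% of all tested genes were called higher and 14.6% lower. The call was lost without any 1 of the control libraries (adjusted p = 0.143, 0.0687 and 0.0856), without UVA replicate 2 or 3 (0.118 and 0.0998), without the filter on low counts (0.0578) and in DESeq2 (0.0988). Co-treated against UVA gave -0.43 ± 0.29 (adjusted p = 0.832).

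The other box H/ACA snoRNAs with enough counts were not called. Snora2b, the snoRNA with the most counts, had 45, 52 and 60 counts in control, 36, 59 and 28 in UVA, and 33, 39 and 46 with co-treatment. Its UVA libraries ran from 1.40 to 3.65 CPM, a range that held every library of both other groups. Snora41 had 23, 25 and 25 counts in control, 43, 29 and 23 in UVA, and 11, 28 and 26 with co-treatment. Counts of Snora57 were 22, 28 and 30 (control), 28, 29 and 8 (UVA) and 10, 18 and 15 (co-treated), so that 1 UVA library was the lowest of all. For Snora57, co-treated against control gave -0.78 ± 0.42 (edgeR adjusted p = 0.18), with all co-treated libraries below all control libraries. Summed over the class, box H/ACA snoRNAs stood at 9.13 ± 0.243 CPM in control, 9.76 ± 1.98 in UVA and 7.84 ± 1.51 with co-treatment, and the co-treated sum was below every control library while overlapping UVA. Of the 4 core proteins of the box H/ACA particle, Nhp2 (0.44 ± 0.05) and Dkc1 (0.34 ± 0.05), the latter encoding the pseudouridine synthase, rose in UVA against control (edgeR adjusted p = 3.91e-08 and 8.15e-07). Gar1 and Nop10 were not called there, and 14.7% of all tested genes were called higher. In co-treated against control, 2 of the 4 were called higher and 1 lower, beside 13.0% and 12.9% of all tested genes. The lower one was Nop10 (-0.31), at means of 56.47, 52.88 and 45.65 CPM in control, UVA and co-treated.

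Box C/D snoRNAs were the class with the most rows, and edgeR called 0 of the 8 that were tested. Of all tested genes, edgeR called 29.3% in UVA against control, 0.0353% in co-treated against UVA and 25.8% in co-treated against control. Unadjusted p-values were below 0.05 for Snord73b in both comparisons with UVA and for Snord53 in co-treated against UVA; DESeq2 also called 0 of the members in UVA against control. Snord73b had 16, 28 and 27 counts in control, 15, 10 and 10 in UVA, and 23, 19 and 17 with co-treatment. The UVA libraries lay below all others on the CPM scale, and control and co-treated overlapped. UVA against control gave -0.96 ± 0.38 (interval -1.75 to -0.18; edgeR adjusted p = 0.0585), and co-treated against UVA gave 0.82 ± 0.39 (interval 0.02 to 1.62; adjusted p = 0.729). The first value passed with control replicate 1 left out (-1.13, adjusted p = 0.0499) and with limma on log2 FPKM (-0.90, adjusted p = 0.012). Snord73a, in another part of the same host gene Rps3a1, had 12, 7 and 4 counts in control, 9, 11 and 12 in UVA, and 10, 10 and 20 with co-treatment, with a UVA against control value of 0.50 ± 0.51 (adjusted p = 0.506). The pair therefore had log2 fold changes of opposite sign in that comparison; the difference between them was not tested.

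Snord53 had 8, 24 and 13 counts in control, 21, 15 and 19 in UVA, and 5, 11 and 9 with co-treatment. Its co-treated libraries lay below all UVA libraries and overlapped control. Co-treated against UVA gave -1.06 ± 0.46 (edgeR adjusted p = 0.699). Snord72 (21, 29 and 33 counts in control; 19, 22 and 38 in UVA; 21, 23 and 21 in co-treated) overlapped between all groups. Snord83b and Snord43, which both lie in Rpl3 and are 45.4% identical, were also not called: Snord83b had 4, 14 and 16 counts in control, 12, 17 and 11 in UVA, and 15, 18 and 17 with co-treatment, and Snord43 had 12, 7 and 8, then 17, 11 and 6, then 11, 13 and 12. Snord7 (5 to 18 counts per library) and Snord91a (4 to 16) overlapped between all groups. Summed over the class, box C/D snoRNAs stood at 11.02 ± 1.70 CPM in control, 9.72 ± 0.073 in UVA and 10.2 ± 0.430 with co-treatment. The co-treated sum was above every UVA library by a ratio of means of 1.05, and both overlapped control. Of the 4 core proteins of this particle, Nop56 rose by 0.21 in UVA against control and the others were not called. Over all tested genes, 14.7% were called higher there.

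**Figure D3:**
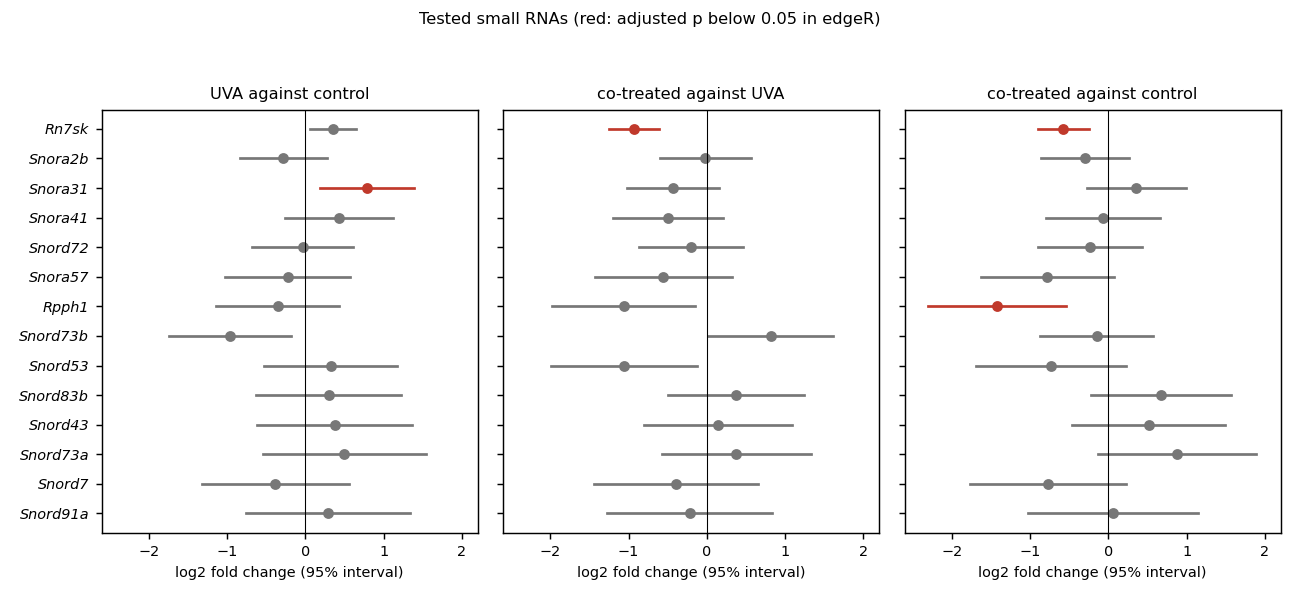
Log2 fold changes from edgeR (points) with 95% intervals (lines) of the 14 tested small RNAs in each comparison; red marks an adjusted p below 0.05. Snora31 is red in UVA against control, Rn7sk in both comparisons of co-treated cells, and Rpph1 in co-treated against control.

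No single RNA of the remaining classes passed the filter on low counts. Cajal body RNAs, which guide modification of snRNAs, had sums of 0.695 ± 0.239, 0.937 ± 0.288 and 0.595 ± 0.223 CPM in control, UVA and co-treated, and the groups overlapped. The snRNAs had 6 counts in the control libraries together, 15 in UVA and 11 with co-treatment, over 15 rows of which 5 were above 0. As sums these were 0.111 ± 0.0632, 0.271 ± 0.0826 and 0.213 ± 0.0671 CPM, and the UVA libraries lay above all control libraries. 7SL had 16 counts in control, 6 in UVA and 2 with co-treatment, or 0.280 ± 0.0894, 0.102 ± 0.131 and 0.0377 ± 0.0327 CPM. Rn7s1 and Rn7s2 are 100% identical in sequence, so the split of counts between these rows is uncertain. Both also overlap rows without a symbol on the same strand. How shared reads were counted is not given, so the 7SL totals are uncertain too. For Rn7s2, 1 count in co-treated against 12 in control was a ratio of 0.0896 after scaling (exact binomial 95% interval 0.0021 to 0.605), and for Rn7s1, 1 against 4 was a ratio of 0.269 (0.0055 to 2.71). Vault RNA had 4 counts in UVA, 1 in co-treated and 0 in control.

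Summed over all 178 rows, small RNAs stood at 28.5, 29.1 and 31.1 CPM in control, 30.8, 32.9 and 28.6 in UVA, and 22.9, 25.0 and 24.5 with co-treatment. The 3 co-treated libraries were the lowest of the 9. The means were 29.6 ± 1.34, 30.8 ± 2.15 and 24.2 ± 1.10 CPM (SD, n = 3), and co-treated over UVA was a ratio of 0.785. Without 7SK the sums were 23.2 ± 1.84, 22.7 ± 2.41 and 19.9 ± 1.23 CPM; co-treated then overlapped UVA and still lay below every control library. Of the tested members, the median log2 fold change was -0.31 in co-treated against UVA, -0.19 in co-treated against control and 0.29 in UVA against control, beside medians of 0 to 0.003 over all tested genes. These medians cover the 14 members that passed the filter, not the 178.

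**Figure D4:**
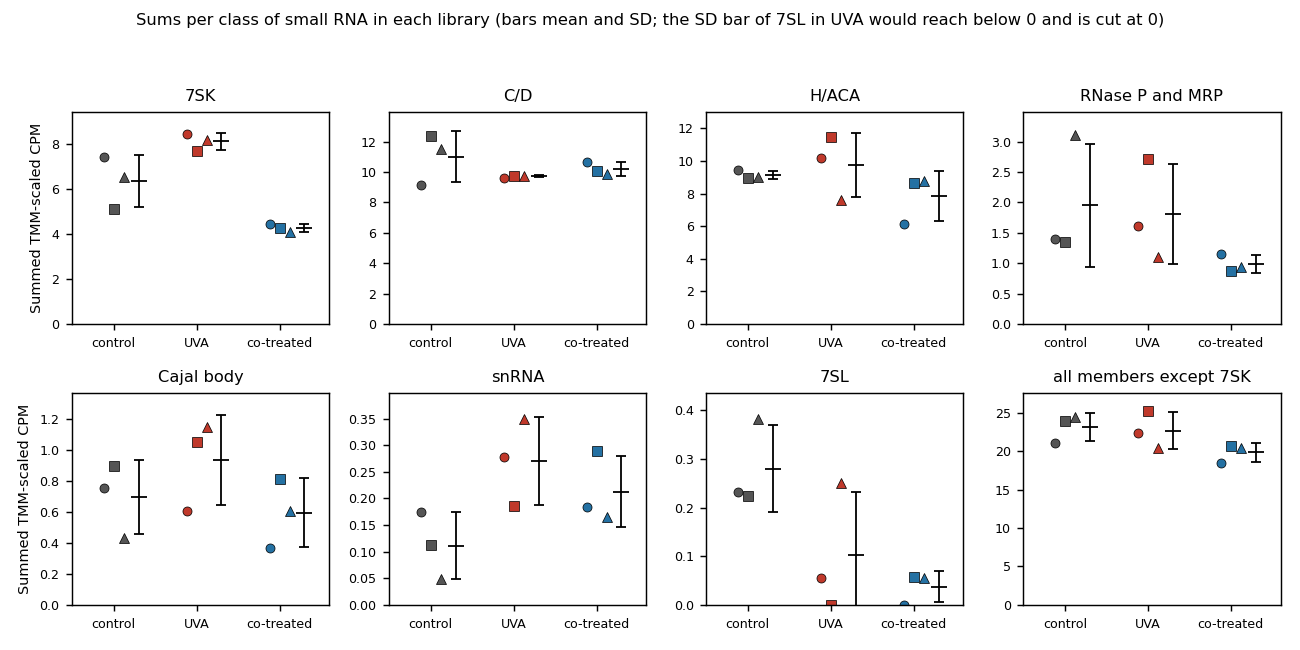
Summed TMM-scaled CPM (linear axes from 0) of each class of small RNA by group, with single libraries as symbols and the mean with its SD as bars (n = 3). The 7SK panel separates the groups, and the sum of the other classes overlaps between UVA and co-treated.

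Groups that did not overlap were counted over the 66 members above 0, most of which were not tested. In UVA against control, 4 members were higher in every UVA library (Rn7sk, Snora31, Snora30 and Rnu12) and 2 lower (Snord73b and Snora78); over tested genes, 21.1% were higher and 20.9% lower in this way. In co-treated against UVA, 2 members were higher (Snord73b and Snord123) and 3 lower (Rn7sk, Snord53 and Rnu2-10), beside 5.45% and 5.31% of tested genes. In co-treated against control, 1 was higher (Snord83b) and 8 were lower, beside 19.8% and 19.9%. The 8 were Rn7sk, Rpph1, Snora2b, Snora57, Snora47, Snora78, Rn7s2 and Scarna10. Several rested on few counts: Snora47 had 4 counts in co-treated against 23 in control (ratio 0.187, exact binomial interval 0.0470 to 0.547), and Scarna10 had 0 against 9. These intervals cover counting error only. The shares over tested genes match only the 14 tested members, not the 66. Of these 14, 2 were higher and 1 lower in UVA against control. In co-treated against UVA, 1 was higher and 2 lower, and in co-treated against control, 1 was higher and 4 lower.

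Most snoRNAs with counts lie inside another gene, and reads from the unspliced host over the same bases cannot be told apart from the mature small RNA in this table. Of the 66 members above 0, 51 lay within 45 host genes: 32 of 34 box C/D snoRNAs, 14 of 15 box H/ACA snoRNAs, 4 of 6 Cajal body RNAs and 1 of 5 snRNAs. Of the 43 hosts tested, 17 were called higher and 1 lower in UVA against control (median log2 fold change 0.10), 0 in co-treated against UVA (median -0.02; 4 at an unadjusted p below 0.05 in edgeR, and 0 called in DESeq2 or limma), and 12 higher and 1 lower in co-treated against control. Over all tested genes, 14.7% were called higher and 14.6% lower in UVA against control, and 13.0% and 12.9% in co-treated against control. In co-treated against UVA, 0.0353% of all tested genes were called, and 957 of 14151 had an unadjusted p below 0.05 in edgeR. Tpt1, which holds Snora31 and encodes a translation-associated protein, rose by 0.26 ± 0.04 in UVA against control (edgeR adjusted p = 2.26e-06), beside 0.79 ± 0.29 for the snoRNA. Eef1b2, an elongation factor gene that holds Snora41, rose by 0.29 ± 0.04 (adjusted p = 9.78e-07), and Tsr1, a ribosome assembly gene that holds Snord91a, by 0.31 ± 0.05 (adjusted p = 4.03e-06). Rps3a1, the ribosomal protein gene around Snord73a and Snord73b, rose by 0.12 ± 0.04 (adjusted p = 0.0147), where Snord73b had -0.96. Kansl2, which holds Snora2b, was at -0.03 ± 0.05 (adjusted p = 0.656). The single host called lower was Snhg18, a noncoding host of Snord123, at -0.57 ± 0.08 (adjusted p = 5.03e-06).

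**Figure D5:**
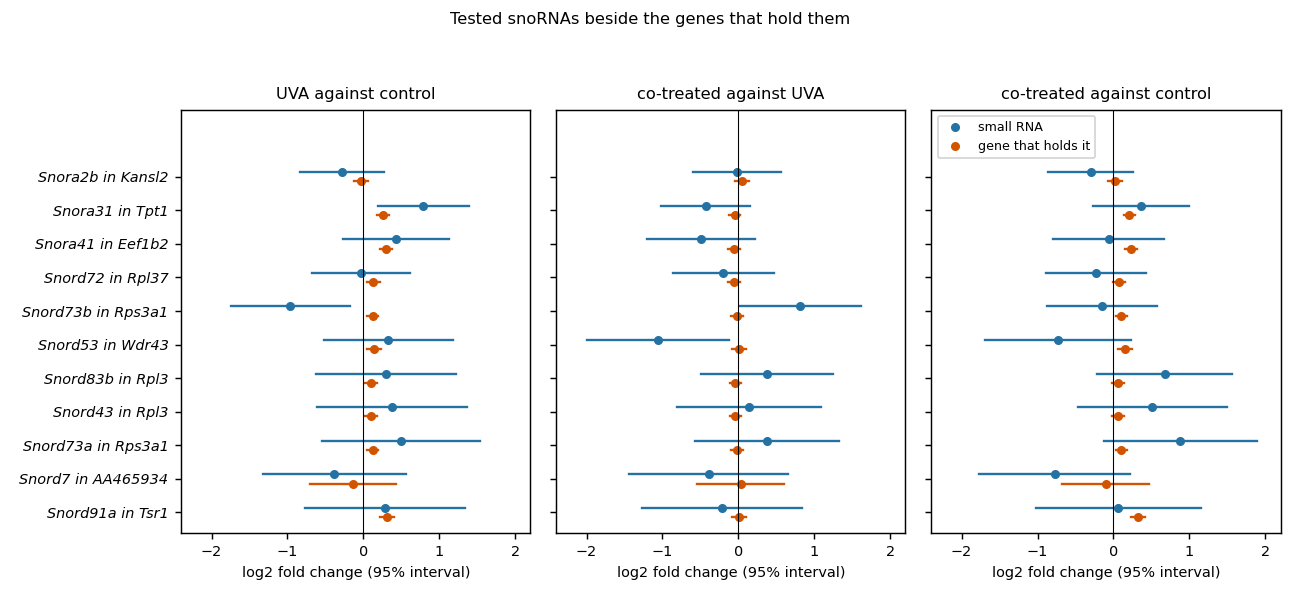
Log2 fold changes from edgeR (points) with 95% intervals (lines) of 11 tested snoRNAs (blue) beside the genes that hold them (orange), in each comparison. Host intervals are narrow next to those of the snoRNAs; Snord73b lies below 0 and its host Rps3a1 above 0 in UVA against control.

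Over all 94 listed genes for proteins that make, modify or carry these RNAs, 91 were tested. In UVA against control 17 were called higher and 6 lower, in co-treated against UVA 0 by edgeR, DESeq2 or limma (13 at an unadjusted p below 0.05 in edgeR), and in co-treated against control 16 higher and 6 lower, beside 29.3%, 0.0353% and 25.8% of all tested genes. The genes called in UVA against control included Znhit6 (0.43) and Pih1d1 (0.35), assembly factors of snoRNA particles, Exosc10 (0.27), a nuclease of the exosome, and Snapc1 (-0.33), a subunit of the complex that starts snRNA and 7SK transcription. Gemin6 (-0.36), of the complex that loads Sm proteins on snRNAs, was lower. In co-treated against UVA, 957 tested genes had an unadjusted p below 0.05 in edgeR, and 4 of the 14 tested small RNAs were among them (Rn7sk, Rpph1, Snord53 and Snord73b).

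Other RNAs with no long poly(A) tail were compared across the same libraries. Replication-dependent histone genes summed to 9.32 ± 1.37 CPM in control, 17.8 ± 2.16 in UVA and 10.9 ± 1.98 with co-treatment, with UVA above every library of both other groups. Of the 8 histone genes tested, 4 were called higher in UVA against control (14.7% of all tested genes were). In co-treated against UVA, edgeR, DESeq2 and limma called 0 of the 8, and edgeR called 0.0353% of all tested genes. An unadjusted p below 0.05 in edgeR was reached there by 4 of the 8, beside 957 of 14151 genes. Among long RNAs that are abundant in the nucleus, Malat1 overlapped between all groups (796, 829 and 778 CPM). Neat1 averaged 217, 157 and 171 CPM; its groups did not overlap in any of the comparisons, and it was called lower in UVA and in co-treated, both against control. The mitochondrial rRNA mt-Rnr1 averaged 757, 712 and 646 CPM, lowest in co-treated, as Rn7sk was, and mt-Rnr2 averaged 1264, 1613 and 1508 CPM. What part, if any, the recovery of RNAs with no long tail has in the small RNA results was not tested.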

How the data were processed

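Per the file headers, the authors deposited a raw count and an FPKM value per Ensembl gene and library. HISAT2 2.2.1, HTSeq 0.6.1, bcl2fastq 2.20.0.422, cutadapt 1.9.1 and mm39 stand in the submitters' processing notes without a role. The deposited FPKM matched count over size over library total within 0.01 in 510219 of 510219 values. How RNA was selected, and whether counting used strand or shared reads, is not given in the labels used here.

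Counts of all 9 libraries entered 1 quasi-likelihood fit in edgeR 4.0.16 (R 4.3.3; filterByExpr, TMM), with Benjamini-Hochberg adjustment over 14151 genes and a threshold of 0.05; the fit was tested on simulated data. Alternatives were other scaling, no filter, the groups compared alone, a replicate block, each library left out, DESeq2 1.42.0, and limma 3.58.1 on log2(FPKM + 1). On that log2 scale changes of low genes are understated. Ratios of few counts carry exact binomial (Clopper-Pearson) 95% intervals. Members with a mean of at least 10 counts were named with their values, as were other members where a sentence says why. The members and lists were chosen with earlier results of these data known. Coordinates are those of the table, on mm39.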

Additional observations from a re-analysis of the deposited data

How the results depend on the processing

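Calls on these RNAs depended on single libraries and on the method. In UVA against control, 1 member was called, but 0 without the filter on low counts, 0 in DESeq2, 3 with limma, and 0 to 2 with 1 library left out. In co-treated against UVA, 1 was called, but 0 with limma, 0 with the 7SK copies added, and 0 to 1 with 1 library left out. In co-treated against control, 2 were called, 1 with the copies added, and 1 to 2 with 1 library left out. For Rn7sk, the range with 1 library left out was 0.22 to 0.47 in UVA against control, -0.96 to -0.90 in co-treated against UVA and -0.71 to -0.46 in co-treated against control. Limma gave 0.34 (adjusted p = 0.0436) and -0.87 in UVA against control and co-treated against UVA. Adding the copies gave -0.48 against UVA and -0.27 against control for co-treated. The copies differed little between groups, so adding them had to bring these values nearer to 0 and is no check of the Rn7sk calls. The causes of the other differences were not tested.

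Whether replicate numbers pair the samples is not given in the labels used here. With group means removed, correlations of same-numbered libraries ran from -0.009 to 0.076, and those of differently numbered libraries from -0.071 to 0.027. Between UVA and co-treated, same-numbered pairs were at 0.045, 0.039 and 0.076, above every differently numbered pair (-0.071 to 0.026). Values this small do not settle whether the libraries were paired. With a replicate block in edgeR, Rn7sk had 0.36 (adjusted p = 0.0581), -0.93 (0.0022) and -0.57 (0.006), and the numbers of members called were 1, 1 and 2.

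Some signs turned. Snora2b in co-treated against UVA was 0.008 with the replicate block and 0.059 with limma. With 1 library left out, UVA against control ran from -0.30 to 0.15 for Snord72, -0.57 to 0.22 for Snora57, -0.79 to 0.087 for Rpph1, -0.059 to 0.53 for Snord83b and -0.028 to 0.74 for Snord43. Co-treated against UVA ran from -0.30 to 0.43 for Snora2b, -0.39 to 0.066 for Snord72 and -0.23 to 0.54 for Snord43. Co-treated against control ran from -0.30 to 0.22 for Snora41 and -0.32 to 0.03 for Snord73b. With 1 library left out, log2 ratios of class sums ran from -2.02 to 0.45 for 7SL in co-treated against UVA, -0.53 to 0.40 for RNase P and MRP and -0.038 to 0.25 for box H/ACA in UVA against control, and -0.51 to 0.031 for Cajal body RNAs in co-treated against control. Other class sums kept their sign but moved without their most abundant member. The log2 ratio went from -0.35 to -1.06 for snRNAs in co-treated against UVA. For RNase P and MRP it went from -0.98 to -0.11 in co-treated against control. Low counts limit all of these values.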
